A study of Mus musculus with 8 samples.

Results

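The genes described here encode acute-phase proteins other than serum amyloid A: haptoglobin (Hp), lipopolysaccharide-binding protein (Lbp), lipocalin 2 (Lcn2), the alpha-1-acid glycoproteins (Orm1, Orm2 and Orm3), ceruloplasmin (Cp), pentraxin 3 (Ptx3), the serpin Serpina3n and the secretory leukocyte protease inhibitor (Slpi). They are 10 of the 22180 genes measured. They were chosen by their log2 differences between the infected groups compared here, so those differences are given as a description and carry no test. Each of the 10 symbols matched 1 probe set, a group of array probes for 1 transcript, and that probe set named no other gene.

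The cells were primary articular chondrocytes from the femoral condyles and tibial plateaus of 5-day-old wild-type ICR mice, grown as a monolayer in medium with 10% serum. In 4 cultures the cells had been infected with Ad-Zip8, a recombinant adenovirus that expresses the zinc transporter ZIP8, and in 4 cultures with the control adenovirus Ad-null. RNA was taken 24 h after infection. All 8 cultures therefore carried an adenovirus, and the promoter that drives ZIP8 is not stated here. The labels do not say whether each culture had its own animals, so a p-value reflects only how much these 8 samples vary. The design asks which transcripts respond to ZIP8 in chondrocytes.

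Acute-phase proteins are plasma proteins whose synthesis in the liver rises during inflammation. In hepatocytes, interleukin 6 acts through STAT3, and interleukin 1 acts through NF-kB and C/EBP transcription factors, to raise their transcription. Several of them are also made outside the liver: lipocalin 2, pentraxin 3 and the secretory leukocyte protease inhibitor come from epithelia, neutrophils and stromal cells, and lipocalin 2 and haptoglobin from fat.

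All values below are log2 expression values as deposited, with array medians between 5.04 and 5.11, and differences are Ad-Zip8 minus Ad-null. Slc39a8, the gene of ZIP8, was 11.16, 10.90, 11.24 and 11.20 in the Ad-Zip8 cultures, against 6.25, 6.27, 6.12 and 6.15 in the Ad-null cultures, so the targeted gene matched the labels on each array. Across genes, 2 arrays of the same group had correlations of 0.991 to 0.993, and 2 arrays of different groups 0.979 to 0.986. The chondrocyte label was checked with 8 cartilage genes, none of which averaged below the array medians. Col2a1, the main cartilage collagen, averaged 13.24 ± 0.09 in Ad-Zip8 cells and 13.46 ± 0.02 in Ad-null cells (SD, n = 4 each). Of these 8 genes 6 fell by limma (75%, against 5.12% of all genes), 2 did not pass and 0 rose. All 8 averaged above the array medians in both groups, so all genes are not a like background. At an unadjusted p under 0.05, all 8 were lower and 0 higher. All 8 were lower without overlap, against 9.74% of all genes. Their summed linear level was 35649.6 to 41884.6 in Ad-Zip8 cultures and 53253.5 to 54516.8 in Ad-null cultures. The part of these lower values in the differences of the 10 genes was not tested.

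Promoter windows were available from RefSeq (build GRCm38.p6, 250 bases before to 50 after the annotated start of transcription) for 7 of the 10 genes. The 250 bases before the start are shown 5′ to 3′ for Slpi (chr2:164356508-164356757, minus strand) and Lcn2 (chr2:32387740-32387989, minus strand), which had the largest differences among those 7, and for the tandem neighbours Orm2 (chr4:63362199-63362448, plus strand) and Orm3 (chr4:63355908-63356157, plus strand). Capitals mark matches to TTGCNNAA, a short form of the C/EBP motif, on either strand.
Slpi: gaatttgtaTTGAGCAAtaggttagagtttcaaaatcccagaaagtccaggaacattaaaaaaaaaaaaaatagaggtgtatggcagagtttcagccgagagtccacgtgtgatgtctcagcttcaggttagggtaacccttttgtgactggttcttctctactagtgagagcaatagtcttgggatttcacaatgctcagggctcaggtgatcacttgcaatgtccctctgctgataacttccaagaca
Lcn2: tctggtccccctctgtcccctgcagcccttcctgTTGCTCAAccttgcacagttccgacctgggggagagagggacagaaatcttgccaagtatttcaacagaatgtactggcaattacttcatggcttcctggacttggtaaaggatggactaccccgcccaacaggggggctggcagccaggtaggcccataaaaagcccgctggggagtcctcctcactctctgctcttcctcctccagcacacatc
Orm2: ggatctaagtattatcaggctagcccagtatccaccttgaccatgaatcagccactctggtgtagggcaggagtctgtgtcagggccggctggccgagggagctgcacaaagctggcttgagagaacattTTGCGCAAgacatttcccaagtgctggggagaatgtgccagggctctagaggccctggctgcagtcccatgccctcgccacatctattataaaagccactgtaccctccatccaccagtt
Orm3: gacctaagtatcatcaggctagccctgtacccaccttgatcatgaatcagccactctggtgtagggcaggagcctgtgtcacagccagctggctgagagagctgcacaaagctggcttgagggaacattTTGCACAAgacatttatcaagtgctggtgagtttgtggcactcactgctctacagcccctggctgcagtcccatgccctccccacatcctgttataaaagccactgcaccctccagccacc

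A match to TTGCNNAA lay in 6 of the 8 windows of the 7 genes, against 10.8% of the 32851 windows of all genes. These 6 windows belonged to 6 genes. Slpi carried TTGAGCAA with its first base at -241, counted from the start, and Lcn2 carried TTGCTCAA at -216. Orm2 carried TTGCGCAA at -120 and Orm3 TTGCACAA at -121. Cp carried TTTTGCAA at -70 in the second of its 2 windows, and Ptx3 carried TTGTGCAA at -57. Serpina3n had no match in its window. The windows of Orm2 and Orm3 were 85.9% identical when aligned over the 250 bases, so their matches are not independent, whereas the windows of Slpi and Lcn2 were 49.7% identical under the same alignment settings.

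Each other motif, searched on both strands, occurred in 3 or fewer of the 7 genes. The kB consensus occurred in 4.51% of all windows and in 1 gene here, Ptx3, where GGGGAACTCC begins at the base before the start and overlaps a second match. The STAT form TTCNNNGAA occurred in 8.30% of all windows and in none of the 7 genes. CTGGGAA, a core of the interleukin 6 response element, occurred in 11.1% of all windows and in Orm3, after the start. The AP-1 form TGANTCA occurred in 7.81% of windows and in Orm2, Orm3 and the first Cp window. The metal response element, searched as TGCACNC or TGCGCNC, occurred in 25.7% of windows and in Orm3 alone, and TATAAA in 13.6% of windows and in Orm2, Orm3 and the second Cp window. A match shows only that these letters are present, and no factor's binding was measured.

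**Figure D1:**
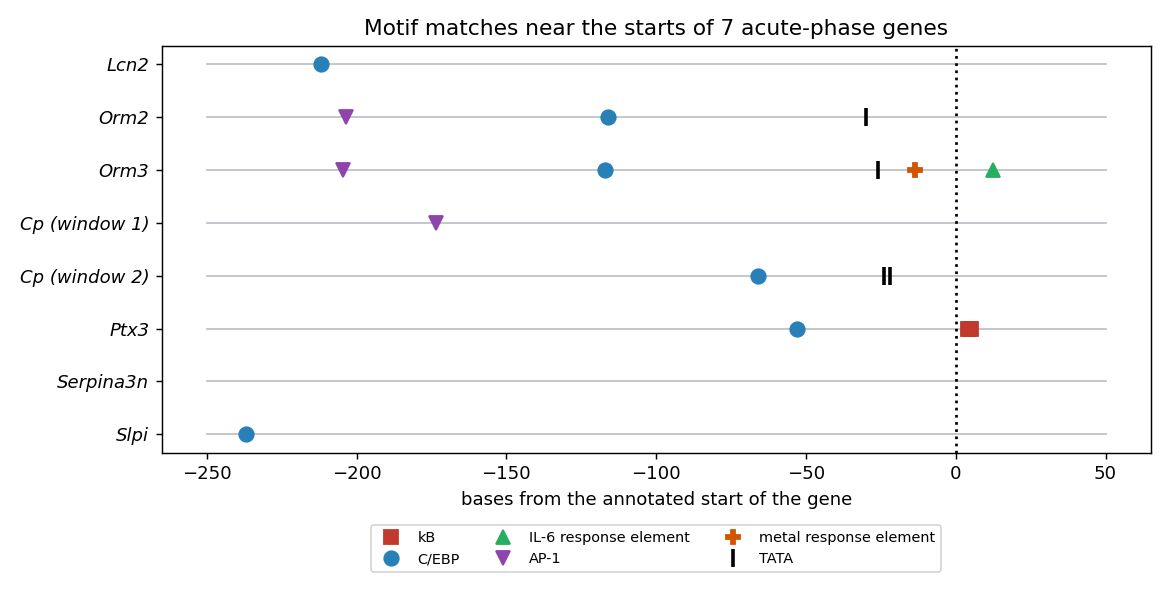
Positions of motif matches in the RefSeq windows of 7 acute-phase genes. The x axis is the distance in bases from the annotated start, each line is a window, and each symbol is the centre of a match on either strand; C/EBP matches appear in 6 of the 7 genes at distances that differ except between Orm2 and Orm3.

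Each of the 10 genes had a higher mean in the Ad-Zip8 cells, by 1.38-fold for Orm3 to 42.1-fold for Hp, with a median difference of 1.77 on the log2 scale. The median over all 22180 genes was -0.02. In 9 of the 10 the groups did not overlap and the Ad-Zip8 arrays were the higher, a pattern found in 7.89% of all genes, while 9.74% of all genes were lower without overlap. Since the genes were chosen on this contrast, nothing is read from that count. The difference was at least 2-fold in 7 of the 10, against 1.12% of all genes. In cultured cells measured in bulk, more cells that make a transcript and more transcript per cell cannot be told apart.

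**Figure D2:**
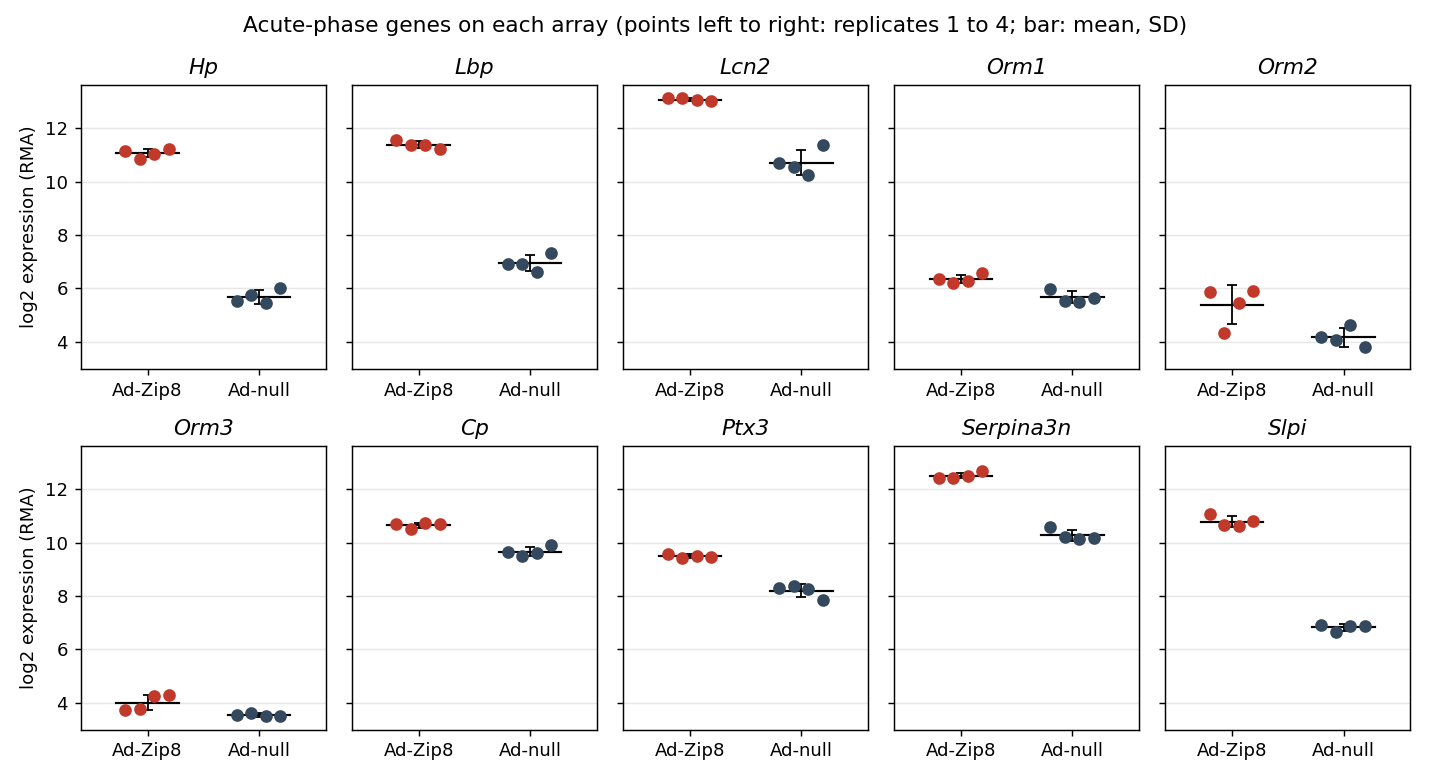
Log2 expression (RMA) of each of the 10 genes on each array, Ad-Zip8 left and Ad-null right. Points run from replicate 1 to replicate 4, the long bar is the group mean and the whiskers the SD (n = 4); Hp, Lbp and Slpi stand far apart between groups, and the groups of Orm2 overlap.

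The largest differences were in the binding proteins for haemoglobin and for bacterial lipopolysaccharide. Hp, haptoglobin, captures free haemoglobin. It measured 11.16, 10.87, 11.03 and 11.22 in the Ad-Zip8 cultures, against 5.52, 5.74, 5.45 and 6.01 in the Ad-null cultures. The lowest Ad-Zip8 array lay 4.87 above the highest Ad-null array, the means differed by 5.39 (SE 0.13), and 4 of the 22180 genes had a larger increase. Lbp, which passes lipopolysaccharide to CD14 and TLR4, measured 11.58, 11.37, 11.39 and 11.25 in the Ad-Zip8 cultures, against 6.93, 6.91, 6.62 and 7.33 in the Ad-null cultures. The groups were 3.92 apart at their nearest, and the difference of means was 4.45 (SE 0.14), or 21.8-fold.

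Both protease inhibitors were higher. Slpi, an inhibitor of neutrophil elastase and cathepsin G, measured 11.07, 10.66, 10.61 and 10.82 in the Ad-Zip8 cultures, against 6.92, 6.63, 6.88 and 6.89 in the Ad-null cultures. The groups were 3.69 apart at their nearest, and the means differed by 3.96 (SE 0.11), or 15.6-fold. Serpina3n, a secreted serine protease inhibitor related to human alpha-1-antichymotrypsin, measured 12.44, 12.44, 12.51 and 12.67 in the Ad-Zip8 cultures. In the Ad-null cultures it measured 10.58, 10.20, 10.13 and 10.19. The difference of means was 2.24 (SE 0.11), or 4.71-fold, with the groups 1.86 apart. Of the related serpin genes of the Serpina3 cluster, Serpina3i had a difference of 0.54 that did not pass (limma adjusted p = 0.0946) but passed as higher with the replicate number as a block. Its same-numbered differences ran from 0.45 to 0.67. Serpina3c, Serpina3f, Serpina3g, Serpina3h, Serpina3k and Serpina3m were not analysed here.

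The metal-handling proteins were high in both groups. Lcn2, lipocalin 2, binds bacterial siderophores and so withholds iron. It measured 13.14, 13.14, 13.05 and 13.01 in the Ad-Zip8 cultures, against 10.70, 10.56, 10.24 and 11.36 in the Ad-null cultures. The groups were 1.65 apart, and the means differed by 2.37 (SE 0.20), or 5.17-fold. Cp, ceruloplasmin, is a copper-carrying ferroxidase. It measured 10.68, 10.50, 10.73 and 10.68 in the Ad-Zip8 cultures, against 9.65, 9.49, 9.61 and 9.90 in the Ad-null cultures. The groups were 0.60 apart and the means differed by 0.99 (SE 0.10), or 1.98-fold.

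Ptx3, the long pentraxin, is an opsonin that also binds to hyaluronan-rich matrix with the product of Tnfaip6. It measured 9.58, 9.44, 9.51 and 9.45 in the Ad-Zip8 cultures, against 8.31, 8.39, 8.25 and 7.85 in the Ad-null cultures. The groups were 1.05 apart, and the difference of means was 1.30 (SE 0.11), or 2.46-fold. Crp, the short pentraxin that is a classic acute-phase protein in humans, averaged 3.88 ± 0.09 in Ad-Zip8 cells and 3.98 ± 0.15 in Ad-null cells (SD, n = 4 each), both below the array medians, and did not pass (limma adjusted p = 0.598).

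The 3 alpha-1-acid glycoprotein genes, carriers of basic drugs and lipids in plasma, lie side by side on chromosome 4, in the order Orm1, Orm3, Orm2 with 1 predicted gene among them, and encode closely related proteins, so each value is uncertain between them. Orm1 measured 6.37, 6.21, 6.28 and 6.58 in the Ad-Zip8 cultures, against 5.99, 5.52, 5.51 and 5.64 in the Ad-null cultures, which is a gap of 0.22 between the nearest arrays. Its means differed by 0.69 (SE 0.12), or 1.62-fold.

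Orm2 measured 5.87, 4.33, 5.47 and 5.90 in the Ad-Zip8 cultures, against 4.16, 4.05, 4.63 and 3.80 in the Ad-null cultures. Ad-Zip8 replicate 2 lay inside the Ad-null range. The difference of means was 1.23 (SE 0.32), and 1.58 without that array. Orm3 measured 3.72, 3.77, 4.23 and 4.28 in the Ad-Zip8 cultures, against 3.52, 3.63, 3.48 and 3.51 in the Ad-null cultures. Its groups were 0.09 apart, with a difference of 0.47 (SE 0.13). Orm2 in the Ad-null cells and Orm3 in both groups averaged below the array medians. Orm3 had the smallest difference of the 10 and Orm1 the next.

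**Figure D3:**
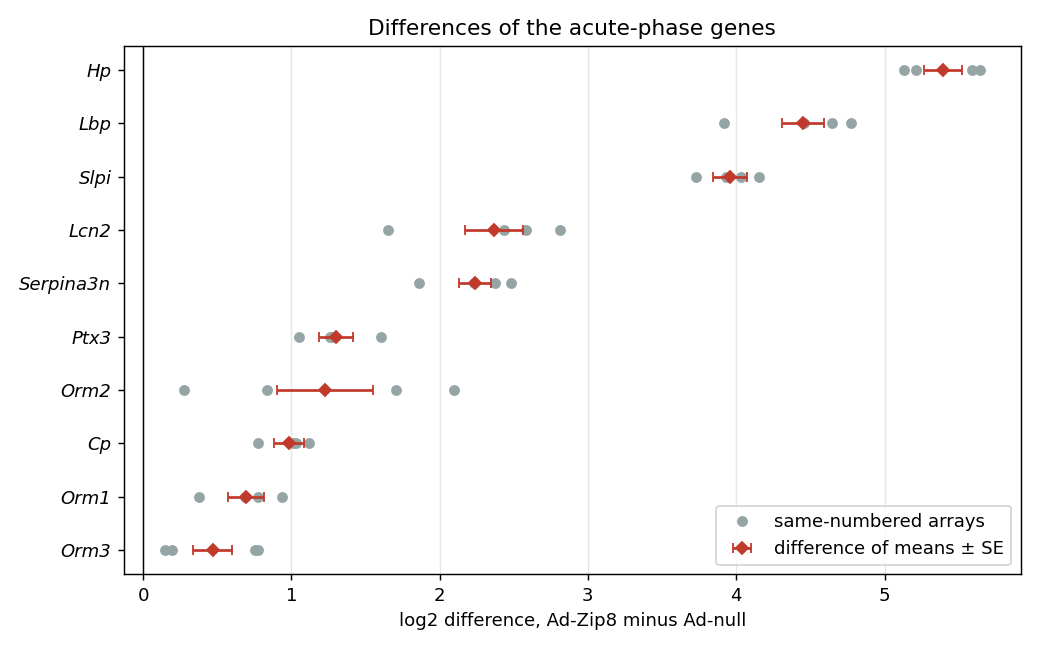
Log2 difference of each gene, Ad-Zip8 minus Ad-null, as the difference of group means with its SE (diamonds) and as the difference of each pair of same-numbered arrays (grey points, 4 per gene). All 40 same-numbered differences lie above 0, from 0.15 for Orm3 to 5.64 for Hp, and those of Orm2 span 0.27 to 2.10.

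Spread between cultures was larger for most of these genes than for a typical gene. The pooled within-group SD lay between 0.143 for Cp and 0.575 for Orm2, with a median of 0.203, against a median of 0.147 over all genes. Among the Ad-null cultures, replicate 4 was the highest for Hp, Lbp, Lcn2 and Cp. Replicate 3 was the lowest for Hp, Lbp, Lcn2, Orm1, Orm3 and Serpina3n. Lcn2 had the widest Ad-null deviations, 0.65 in replicate 4 and -0.47 in replicate 3. Ptx3 and Orm2 were lowest in replicate 4, with deviations of -0.35 and -0.36, and Orm2 was highest in replicate 3, at 0.47. Among the Ad-Zip8 cultures, replicate 2 lay below the group mean in 9 of the 10 genes. Slc39a8 itself was lowest on that array, at 10.90. Whether the lower Slc39a8 value has a part in the lower values of that array was not tested.

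**Figure D4:**
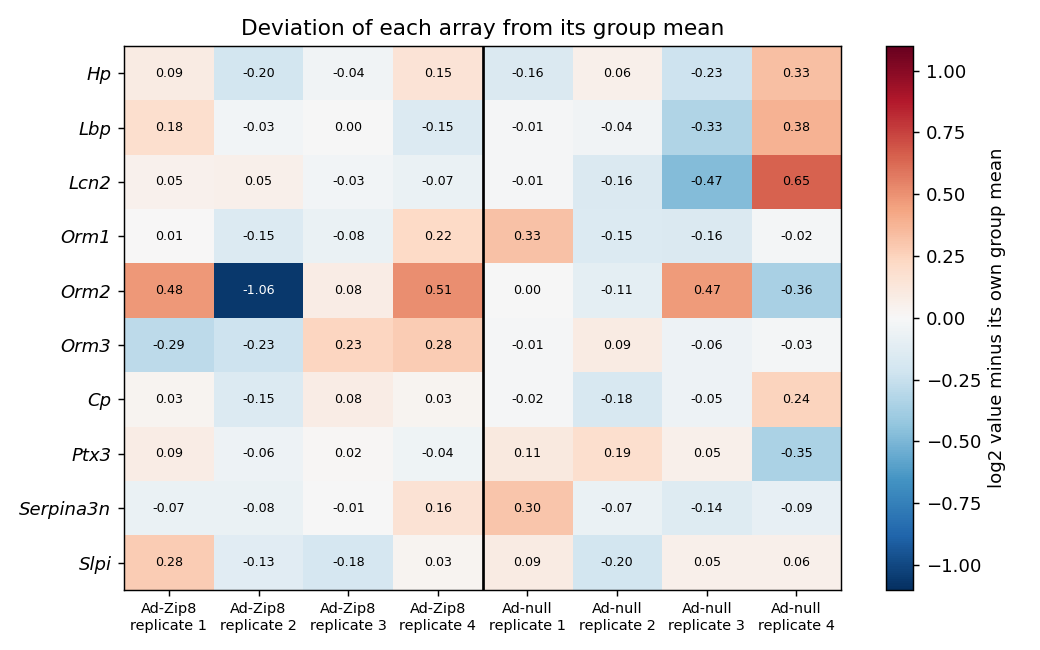
Log2 value of each gene on each array minus its own group mean, with Ad-Zip8 arrays left of the line and Ad-null arrays right of it. Ad-Zip8 replicate 2 is negative for 9 of the 10 genes, most for Orm2 (-1.06), and Ad-null replicate 4 is highest for Lcn2 (0.65).

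Among the Ad-null cultures, the serum amyloid A genes, the other large group of inducible acute-phase genes, were also highest in replicate 4. By limma 3 of the 3 measured rose in Ad-Zip8 cells (100%, against 5.48% of all genes). Saa3 measured 13.50, 13.43, 13.50 and 13.44 in the Ad-Zip8 cultures, against 9.31, 8.56, 8.88 and 10.09 in the Ad-null cultures, with replicate 4 the highest as for Lcn2. Saa2 and Saa4 had their highest Ad-null values on the same array, at 4.15 and 4.95. In the Ad-Zip8 cultures Saa2 measured 8.79 to 9.51 and Saa4 8.07 to 8.57. Saa1 was not analysed here.

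Of 22 further positive acute-phase genes 5 rose by limma (22.7%, against 5.48% of all genes), 17 missed the threshold and 0 fell (0 also at an unadjusted p under 0.05), and the median difference was 0.03. Cfb, complement factor B, averaged 9.66 ± 0.31 in Ad-Zip8 cells and 5.95 ± 0.27 in Ad-null cells (SD, n = 4 each), and so rose 13.1-fold (limma adjusted p = 2.1e-06). Serping1, the inhibitor of complement C1, rose 5.13-fold (adjusted p = 1.58e-04), and C4b, complement component 4B, rose 1.90-fold (adjusted p = 7.67e-04). Il1rn, the interleukin 1 receptor antagonist, rose 1.45-fold (adjusted p = 0.0300) and Hamp2, a hepcidin gene, 1.26-fold (adjusted p = 0.0380). Serping1 and Il1rn averaged below the array medians in Ad-null cells. Hamp2 did so in both groups, at 2.57 in Ad-Zip8 cells and 2.23 in Ad-null cells. Il1rn lost its call when Ad-null replicate 2, 3 or 4 was omitted, and when Ad-Zip8 replicate 2 or 3 was. Hamp2 lost its call on omission of each single array but Ad-null replicate 4, with the variance trend and with repeated quantile normalization.

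In the same list, 14 of the 22 genes averaged below the array medians in both groups. The beta chain of fibrinogen, Fgb, averaged 3.69 ± 0.16 in Ad-Zip8 cells and 3.70 ± 0.17 in Ad-null cells (SD, n = 4 each). Hpx, the haem-binding hemopexin, had a difference of 0.03. Neither passed.

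Negative acute-phase genes, whose plasma proteins fall in inflammation, gave 0 of 9 past the limma test (2 were higher and 0 lower at an unadjusted p under 0.05). Alb, serum albumin, averaged 3.83 ± 0.30 in Ad-Zip8 cells and 3.67 ± 0.23 in Ad-null cells (SD, n = 4 each), below the array medians. Rbp4, the retinol carrier, averaged 9.66 ± 0.19 in Ad-Zip8 cells and 9.29 ± 0.13 in Ad-null cells (SD, n = 4 each; adjusted p = 0.0535). With replicate number as a block 2 of the 9 passed as higher, Rbp4 and Fetub.

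**Figure D5:**
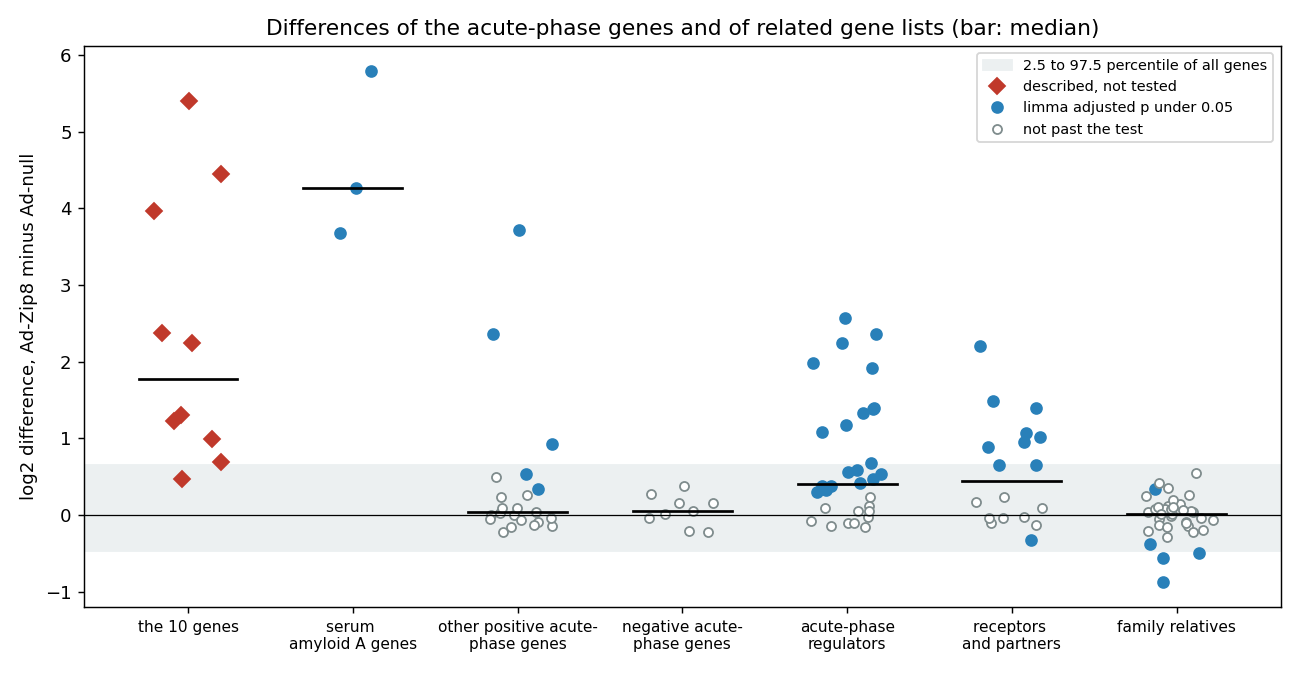
Log2 difference, Ad-Zip8 minus Ad-null, of the 10 genes (diamonds, not tested) and of the genes of 6 related lists (filled where the limma adjusted p was under 0.05, open where not). Bars are list medians and the grey band, from -0.48 to 0.65, spans the central percentiles of all 22180 genes; the regulators lie mostly above 0 and the family relatives around it.

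Many of the regulators known to control acute-phase genes rose. Of 32 measured, 21 rose by limma (65.6%, against 5.48% of all genes), 11 missed the threshold and 0 fell (0 also at an unadjusted p under 0.05, against 5.12% of all genes that fell), and the median difference was 0.40. Like the other lists, this one was chosen with earlier results of these data known. In both groups 26 of the 32 averaged above the array medians, so all genes are not a like background. Cebpd, which encodes the inducible factor C/EBP delta, measured 7.61, 7.51, 7.51 and 7.35 in the Ad-Zip8 cultures, against 5.00, 4.91, 4.63 and 5.17 in the Ad-null cultures, which is 5.93-fold higher (adjusted p = 2.1e-06). Cebpb, for C/EBP beta, rose 2.63-fold (adjusted p = 1.73e-05). The NF-kB cofactor genes Nfkbiz and Bcl3 rose 5.12-fold (adjusted p = 2.56e-06) and 4.73-fold (adjusted p = 2.32e-06).

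On the interleukin 6 side, Osmr, the oncostatin M receptor, rose 2.12-fold (adjusted p = 8.58e-06) and Socs3, the feedback inhibitor of STAT3 signalling, 2.60-fold (adjusted p = 1.70e-05). Il6 and Stat3 are named after their values were seen: Il6 averaged 5.83 in Ad-Zip8 cells and 3.91 in Ad-null cells and rose 3.78-fold (adjusted p = 8.00e-04), and Stat3 rose 1.23-fold (adjusted p = 0.0308). Stat3 lost its call with arrays centred on their medians, and on omission of Ad-null replicate 2, 3 or 4 or of Ad-Zip8 replicate 1, 2 or 4. The interleukin 6 receptor gene Il6ra had a difference of -0.10 and the NF-kB subunit gene Rela one of 0.05, and neither passed. Il1b averaged 3.37 ± 0.39 in Ad-Zip8 cells and 3.33 ± 0.16 in Ad-null cells (SD, n = 4 each), below the array medians, and did not pass. Il11ra1 and Nfkb1 were not analysed here.

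Of 18 receptors and binding partners of the encoded proteins, 9 rose (against 5.48% of all genes), 1 fell (against 5.12%) and 8 did not pass. In both groups 12 of the 18 averaged above the array medians, so here too all genes are not a like background. Among those that rose were the pattern receptor genes Cd14, 2.63-fold (adjusted p = 3.22e-04), Tlr4 2.02-fold (adjusted p = 1.72e-04) and Tlr2 2.79-fold (adjusted p = 4.91e-05). Mmp9, listed as a reported partner of lipocalin 2, averaged 7.47 in Ad-Zip8 cells and 5.27 in Ad-null cells and rose (adjusted p = 8.05e-05). Whether the 2 proteins bind in these mouse cells was not measured. Tnfaip6, the matrix partner of pentraxin 3, rose 1.85-fold (adjusted p = 3.55e-04), and Fgf2, a growth factor that pentraxin 3 binds, 2.11-fold (adjusted p = 1.85e-04). Slc22a17, a receptor for lipocalin 2, fell 1.25-fold (limma adjusted p = 0.0258) and was named after this was seen. Its call was lost under the replicate block and on omission of each single array other than the 2 arrays numbered 3. Cd163, the scavenger receptor for haptoglobin with haemoglobin, averaged 4.36 ± 0.05 in Ad-Zip8 cells and 4.40 ± 0.07 in Ad-null cells (SD, n = 4 each) and did not pass.

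Genes of the same protein families were called in both directions. Of 37 lipocalin, pentraxin, serpin, whey-acidic-protein, lipid-transfer and multicopper-oxidase relatives, 1 rose (2.70%, against 5.48% of all genes), 4 fell (10.8%, against 5.12% of all genes) and 32 missed the threshold, and the median difference was 0.01. F5 and F8, coagulation factors that share domains with ceruloplasmin, fell 1.83-fold (adjusted p = 7.76e-04) and 1.47-fold (adjusted p = 0.00436). The lipocalin gene Apod fell 1.41-fold (adjusted p = 0.00687). Wfdc1, in the family of Slpi, fell 1.30-fold (adjusted p = 0.0447), and Heph, a ferroxidase gene like Cp, rose 1.26-fold (adjusted p = 0.0381). The last 2 did not pass in 8 of 13 alternative analyses each. Under the block by replicate number the list held 3 higher and 3 lower calls. Pltp, a relative of Lbp, averaged 9.15 ± 0.18 in Ad-Zip8 cells and 9.21 ± 0.14 in Ad-null cells (SD, n = 4 each) and did not pass.

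Markers of other cells that make these proteins were measured on the same arrays. Of 15 hepatocyte markers 1 rose (Fah, 1.69-fold, named after its value was seen as are the marker genes below), 9 averaged below the array medians in both groups, and their summed linear level was 779 to 853 in Ad-Zip8 cultures and 623 to 649 in Ad-null cultures. Of 12 neutrophil markers 11 averaged below the array medians in both groups and 1 rose (Camp, 1.51-fold), with sums of 234 to 272 in Ad-Zip8 cultures and 216 to 258 in Ad-null cultures. Of 12 macrophage markers Cd68 rose and Mertk fell, with sums of 574 to 625 in Ad-Zip8 cultures and 608 to 668 in Ad-null cultures. Of 9 adipocyte markers Fabp4 (6.87-fold) and Adipoq (1.27-fold) rose, with sums of 490 to 628 in Ad-Zip8 cultures and 417 to 463 in Ad-null cultures. Of 8 fibroblast and synovial markers Pdgfra and Fap rose and Col1a2 fell, with sums of 3690 to 4806 in Ad-Zip8 cultures and 3912 to 5053 in Ad-null cultures. The shares that rose were 6.67% of hepatocyte, 8.33% each of neutrophil and macrophage, 22.2% of adipocyte and 25% of fibroblast and synovial markers. Over all genes the share was 5.48%. Of macrophage markers 8.33% fell and of fibroblast and synovial markers 12.5%, against 5.12% of all genes. Each of these marker shares rests on 1 or 2 genes. The part of such cells in the differences of the 10 genes was not tested.

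Genes whose profile over the 8 arrays lay nearest to that of an acute-phase gene were found by the root mean square distance after subtracting each gene's Ad-null mean, for the 9 genes whose groups did not overlap. Hp lay nearest to the chemokine gene Cxcl5 (0.20 on the log2 scale), Lbp to the metalloreductase gene Steap4 (0.26) and Slpi to the chemokine gene Ccl5 (0.23). Lcn2 lay nearest to Nfkbiz (0.22) and Serpina3n to Bcl3 (0.18), both also in the list of regulators. Among the smaller differences, Ptx3 lay nearest to Kif11 (0.09), Cp to Tmem176b (0.09), Orm1 to Pros1 (0.06) and Orm3 to Olfr482 (0.09). A small distance says that the sizes of difference were alike, and nothing about control. It need not mean that the arrays deviated alike. Serpina3n was highest among the Ad-Zip8 cultures in replicate 4, at 12.67, where Bcl3 was lowest, at 9.13.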

How the data were processed

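The authors deposited 1 log2 value per probe set and array, which the submitters' processing notes credit to RMA, a method that corrects background, equalises the arrays' distributions and summarises probes. No source used here gives its version or annotation. The labels' protocols name biotin labelling with a whole-transcript kit. Precision is limited by the 8 arrays.

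The platform annotation gave 1 gene symbol to 23521 of 41345 probe sets, several to 1814 and listed none for 16010. The reference table (GRCm38.p6) held 23328 of the 23521 identifiers and changed 0 symbols. Where a gene had more than 1 probe set (1082 genes) the brightest on average was used, giving 22180 genes. The Ad-Zip8 and Ad-null arrays were compared by limma 3.58.1 in R 4.3.3 (lmFit, eBayes, two-sided, no covariates, no filter), Benjamini-Hochberg adjusted over the 22180 genes at 0.05. Every adjusted p comes from this fit, and SE is its moderated standard error. The fit was tested on simulated data. "Rose" and "fell" are used of genes past it.

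The 10 genes, the gene lists and the tests were chosen with earlier results of these data known. Named genes were the 10, Slc39a8, up to 6 called and 3 uncalled genes of each list, and the nearest genes. Alternatives were a replicate block, a variance trend, leaving out dim genes, 2 rescalings of the arrays, the mean over probe sets, and leaving out each array. Deviations from the group means correlated at 0.11 to 0.37 between the 4 same-numbered array pairs and at -0.27 to 0.16 between the other 12, so equal numbers were treated as pairs in the blocked fit; the pairing is inferred from the data. Promoter windows came from RefSeq and were aligned with Biopython 1.88.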

Additional observations from a re-analysis of the deposited data

Results flagged for a closer look

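In 72 groups of 4 arrays, for the 10 acute-phase genes, Slc39a8 and the named list genes, 4 arrays stood apart from the other 3 of their group by a gap test at the 95% level. Chance alone gives about 1 in 20 groups, which is near the 4 of 72 found. Serpina3n was 10.58 in Ad-null replicate 1, against 10.13 to 10.20 in the other Ad-null cultures. Slpi was 6.628 in Ad-null replicate 2, against 6.88 to 6.92 in the others. Serping1 was 5.318 in Ad-null replicate 1, against 4.71 to 4.80, and Cd14 was 5.123 in Ad-null replicate 3, against 5.47 to 5.51. None of these arrays reached the range of the Ad-Zip8 cultures.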

How the results depend on the processing

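Rescaling the arrays or leaving one out moved the differences of the 10 genes, by under 1 within-group SD in all 100 combinations of gene and setting. With 4 arrays per group, leaving one out cannot move a difference that far, so this bound was fixed in advance there. Centring the arrays on their medians moved every gene by the same amount. Repeated quantile normalization could have passed the bound in each of the 10 genes, and did not. The median difference of the 10 genes ran from 1.69 to 1.92. The replicate block, the variance trend, the filter on dim genes and the mean over probe sets cannot move these differences and say nothing of their stability. The filter on dim genes left out Orm2 and Orm3. Over the whole table, the count of genes that fell was 721 when Ad-null replicate 1 was omitted and 708 when Ad-Zip8 replicate 1 was, against 1136 with all arrays, and leaving out each array gave 708 to 923. Counts in the related lists were small and moved with the settings. For the further positive genes, 3 rose after dim genes were left out, and leaving out each array gave 3 or 4, against 5. For the negative genes, 2 were higher with the replicate block, 1 with the variance trend, 1 after dim genes were left out, 1 with repeated quantile normalization, and 0 or 1 with an array left out, against 0. For receptors and partners, 0 fell with the replicate block and 0 or 1 with an array left out, against 1. For family relatives, 3 rose with the replicate block, 0 with the variance trend, 0 with arrays centred on their medians and 0 to 2 with an array left out, against 1, and 2 fell after dim genes were left out, against 4. The block changed the calls of Fgl1, Rbp4, Fetub, Lcn3 and Serpina3i to higher and ended those of Slc22a17 and Wfdc1, and no other call in these lists. The counts of regulators that rose ran from 18 to 21, and the 3 serum amyloid A genes passed in every alternative run. Depth in the sense of reads does not apply to arrays: no detection calls were used, so genes below the array medians have no measured background limit.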
